A study of Mus musculus with 3 samples.

Results

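The cells described here are the kidney cells in which at least 1 transcript of Cdkn1a was counted. Cdkn1a encodes p21, an inhibitor of cyclin-dependent kinases. They were selected on their measured Cdkn1a count, as barcodes with at most 50% mitochondrially encoded (mt-) counts and at least 1 unique molecular identifier (UMI, a tag that marks 1 captured transcript) of Cdkn1a. This found 383 of 22063 barcodes, or 1.74% (exact 95% interval 1.57 to 1.92). Each was set against barcodes of its own library with 0 Cdkn1a UMIs and a like total count, 10 for each positive barcode and 3830 in all. Because Cdkn1a itself chose the cells, its counts are given as a description, and it was left out of every comparison of other genes.

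The study set young male mice (3 to 4 months old) beside aged male mice (20 months old) that received vehicle or D+Q, the senolytic treatment of the series. The 3 libraries are called young, vehicle and D+Q below, vehicle being aged mice given vehicle and D+Q aged mice given D+Q. Each group is 1 droplet library of kidney tissue dissociated with collagenase II and freed of red cells, and the sources used here do not give the number of mice behind a library. With 1 library per group and cells that are not replicates, no test between groups or between cells was possible. Intervals below are exact 95% intervals that cover counting error only. The matrices held 8615 young, 6027 vehicle and 8037 D+Q barcodes with a median of 2391, 1883 and 2299 counts, and 8230, 5945 and 7888 of them passed the mt- limit. Pairs of libraries shared between 28 and 33 barcode sequences, and 0 of these were Cdkn1a-positive in both libraries.

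p21 binds cyclin and cyclin-dependent kinase complexes and halts the cell cycle. Its gene is a classic target of the transcription factor p53 after DNA damage, and it is also induced without p53 during differentiation, wound repair and other stress. In the kidney it is known from injured tubules and, with p16 (Cdkn2a), as a common marker of senescent cells, although p21 transcripts are also present in cells that are not senescent.

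Cdkn1a-positive barcodes were found in all 3 libraries. They were 172 of 8230 young barcodes (2.09%, 1.79 to 2.42), 80 of 5945 vehicle barcodes (1.35%, 1.07 to 1.67) and 131 of 7888 D+Q barcodes (1.66%, 1.39 to 1.97). These shares follow depth, so each barcode was also thinned to 1000 UMIs, which gave 0.644% in young, 0.656% in vehicle and 0.583% in D+Q. Averaged over all possible draws of 1000 UMIs, the shares were 0.748%, 0.554% and 0.655%. The order of the libraries therefore differed between 1 draw and the average of all draws. The level of Cdkn1a over all barcodes, in CPM (counts scaled to a common total), was 8.78 (7.62 to 10.1) in young, 7.76 (6.36 to 9.37) in vehicle and 7.28 (6.17 to 8.54) in D+Q. The log2 ratio was -0.18 (-0.53 to 0.16) for vehicle over young and -0.09 (-0.46 to 0.28) for D+Q over vehicle. Both intervals include 0, so no difference in level between libraries was detectable at this depth.

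Most members rested on a minimal count. The threshold lies between 0 and 1 UMI: 329 of the 383 barcodes had exactly 1 Cdkn1a UMI, 41 had 2 and 13 had 3 or more, against 0 just outside it. The highest count in 1 barcode was 6 in young, 9 in vehicle and 3 in D+Q. Positive barcodes were deeper than the rest, with a median total of 3152 against 2400 counts in young, 2650 against 1885 in vehicle and 2672 against 2300 in D+Q. Matching brought the medians of the barcodes without a UMI to 3153, 2650 and 2672. The mt- share was not matched, and its median was 6.44% in positive and 5.02% in matched barcodes, higher in the positive barcodes of each library. Its part in the results below was not tested.

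Detection was concentrated in the deepest barcodes. Each library was cut by total counts into 4 bins of like size. In the deepest bin, 4.29% of young, 3.03% of vehicle and 2.89% of D+Q barcodes were positive. The other 3 bins lay between 1.31% and 1.41% in young, 0.535% and 1.28% in vehicle, and 1.07% and 1.57% in D+Q. In each library the deepest bin stood above the other 3, whose intervals overlapped.

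**Figure D1:**
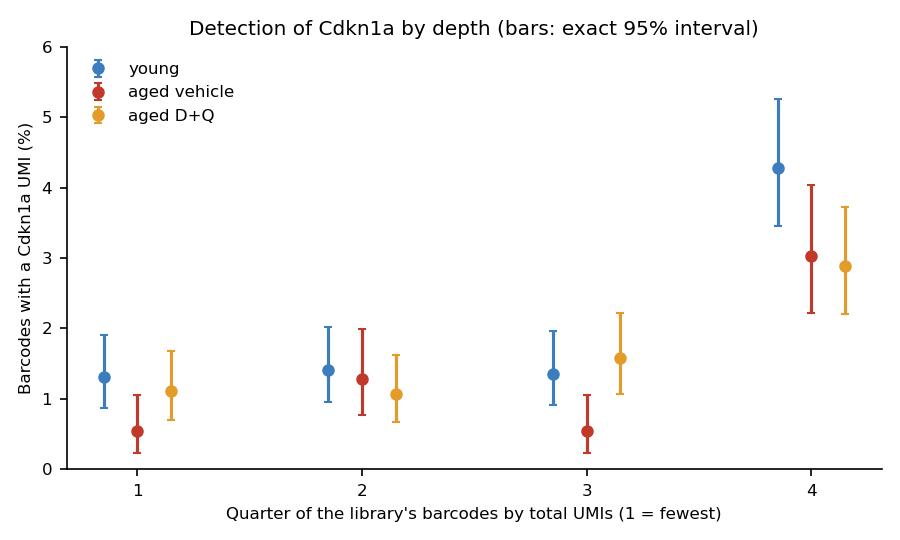
Share of barcodes with a Cdkn1a UMI (y axis, percent) in 4 bins of a library's barcodes ordered by total UMIs (x axis, 1 the shallowest), with points for the young, vehicle and D+Q libraries and exact 95% intervals. The deepest bin reached 4.29%, 3.03% and 2.89%, above every other bin of the same library.

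Cells were clustered again without Cdkn1a, and clusters were named from marker genes, so names end in "-like" and may differ from those of the study. Barcodes with a high doublet score were kept as a group of their own. They made up 7.05% of positive and 7.68% of matched barcodes.

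Proximal tubule-like cells, which reabsorb most of the filtered solutes, were the most frequent class but were under-represented. They were 30.5% (26.0 to 35.4) of positive barcodes against 51.3% of depth-matched barcodes, and 117 of 13769 such cells were positive (0.850%). Urothelium-like cells, the lining of the renal pelvis, were over-represented in the opposite way, with 10.4% (7.57 to 13.9) of positive against 1.31% of matched barcodes. Endothelial-like cells made up 13.6% (10.3 to 17.4) of positive and 10.9% of matched barcodes, a log2 ratio of 0.32. At Leiden resolution 2 it was 1.78, because 218 cells were then named endothelial-like and a cluster of 1072 cells with Flt1 and Sox17 among its leading genes went unnamed. Cluster 2 made up 12.8% and 10.9%. It had C7 and Carmn among its leading genes and was unnamed, as its T and NK cell markers stood too close to its endothelial markers. Cluster 7, led by the collecting duct genes Hsd11b2 and Aqp2 and with a median mt- share of 37.3%, made up 4.96% and 1.88%. It was unnamed, as its thick ascending limb markers (score 0.73) stood close to its connecting tubule and principal cell markers (0.77). At Leiden resolution 2, a thick ascending limb-like cluster of 212 cells, with a median mt- share of 42.4%, held 12 positives. A connecting tubule and principal cell-like cluster of 121 cells, with 37.3%, held 6. Distal convoluted tubule-like cells held 18 positives of 916 cells and thick ascending limb-like cells 9 of 676, and podocyte-like and intercalated cell-like cells held 1 each.

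**Figure D2:**
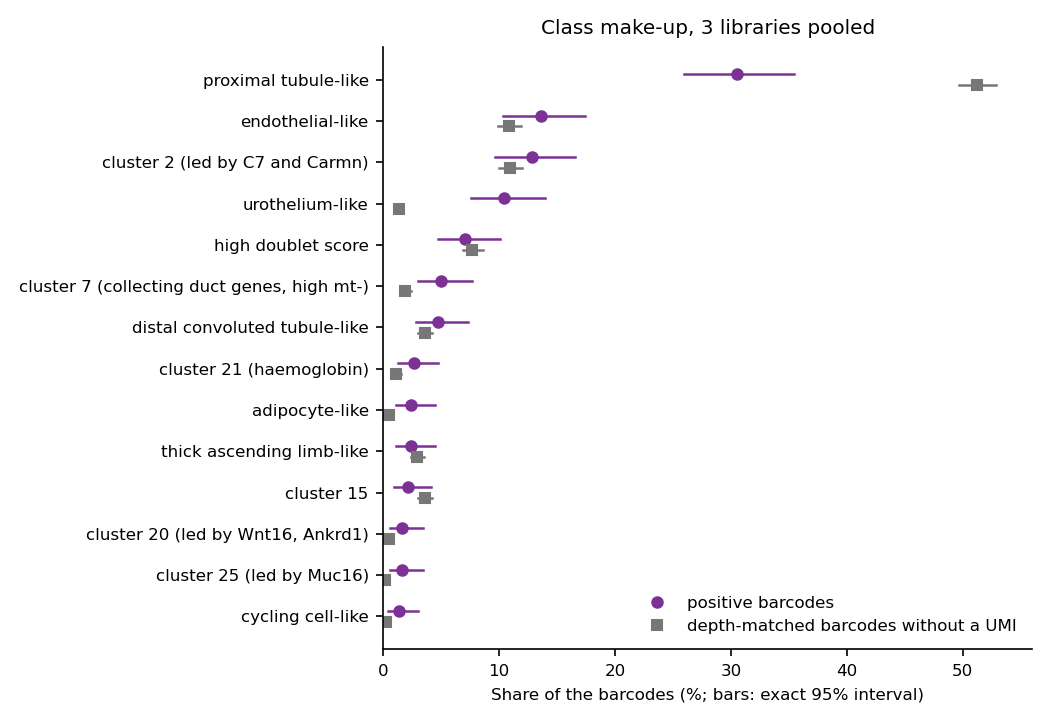
Share (x axis, percent) of the Cdkn1a-positive barcodes (purple circles) and of depth-matched barcodes without a Cdkn1a UMI (grey squares) in each class (y axis), 3 libraries pooled, with exact 95% intervals. Proximal tubule-like cells are 30.5% of positives against 51.3% of matched barcodes, and urothelium-like cells 10.4% against 1.31%.

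The urothelial positives came mostly from the young library. There 32 of 154 urothelium-like cells were positive (20.8%, 14.7 to 28.0), against 0 of 15 in vehicle, which allows a share of up to 20.0% by 3 counts of the total and 21.8% by the exact interval, and 8 of 77 in D+Q (10.4%, 4.59 to 19.4). Their Cdkn1a level in young was 78.7 CPM (58.1 to 104), that in D+Q was 53.4 (29.9 to 88.1), and the log2 ratio of D+Q over young, -0.54, had an interval of -1.50 to 0.30. The young urothelial positives were concentrated in cluster 17, which was led by Lypd3, Krt20 and Ivl, genes of superficial and cornifying epithelium. It held 56 young, 0 vehicle and 2 D+Q cells, so this state was compared in 1 library only. In it 25 of 56 young cells were positive (44.6%, 31.3 to 58.5), with 131 CPM (92.6 to 181). Cluster 16, led by the basal keratin gene Krt15, had 7 positives of 98 young cells, 0 of 15 vehicle cells and 7 of 75 D+Q cells.

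Within cluster 17 of the young library, the 25 positive and 31 negative cells differed little in several of the urothelial genes examined. The log2 ratio of positive over negative cells was 0.24 (-0.01 to 0.50) for Upk1b and 0.14 (-0.06 to 0.35) for Upk3a, both of which encode uroplakins of the urothelial plaque. Krt20, a keratin of umbrella cells, gave 0.08 (-0.48 to 0.65). Krt19 was lower, at -0.41 (-0.66 to -0.17), and Krt18 was higher, at 0.34 (0.03 to 0.65). Ivl, a leading gene of the cluster, gave 0.82 (-0.09 to 1.84). The p53 targets Mdm2 and Perp gave -0.75 (-2.29 to 0.62) and -0.23 (-0.74 to 0.29). Gdf15, also a p53 target, had 2 counts in positive and 0 in negative cells, too few to compare. Positive cells had a median total of 4369 counts against 3734, which was not matched here. Cluster 16 differed more and not in 1 direction between libraries, on 7 positives each. Depth was not matched there either. Positive cells had a median total of 4533 against 2650 counts in young and 5346 against 2729.5 in D+Q. With so few cells, 1 cell can carry much of a ratio, which the intervals do not cover. In cluster 16 Upk1b was at 1.16 (0.83 to 1.51) in young and -0.80 (-1.56 to -0.14) in D+Q, and Krt18 at 0.42 (-0.21 to 1.01) and 1.18 (0.76 to 1.62).

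Several small groups of cells also had high levels, each in 1 library. Cycling cell-like cells were positive in 5 of 21 young cells, 0 of 9 vehicle and 0 of 7 D+Q cells, with 101 CPM (40.4 to 207) in young. Cluster 25, led by Muc16, a mucin of mesothelium, was positive in 6 of 33 vehicle cells (93.8 CPM, 40.5 to 185), 0 of 8 young and 0 of 9 D+Q cells. Adipocyte-like cells were positive in 9 of 85 young cells (36.6 CPM, 16.7 to 69.4) and in 0 of 12 vehicle and 0 of 6 D+Q cells. The intervals of the libraries at 0 overlapped these levels in all 3 groups, so a difference between libraries was not detectable. Cluster 20 was led by Wnt16, Ankrd1, Kcnh8 and Tnc. It had 6 of 6 parietal cell markers but was left unnamed for Havcr1, the gene of the tubular injury marker KIM-1, which came next among its leading genes. It held 0 positives of 50 young, 3 of 32 vehicle and 3 of 77 D+Q cells.

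Within the 2 large named classes no difference in Cdkn1a level between libraries was detectable. Proximal tubule-like cells had 4.09 CPM (3.03 to 5.39) in young, 4.39 (3.04 to 6.14) in vehicle and 4.18 (3.12 to 5.48) in D+Q. Endothelial-like cells had 9.86 (6.18 to 14.9), 12.0 (6.69 to 19.7) and 15.2 CPM (9.77 to 22.7), on 22, 15 and 24 UMIs. The log2 ratio of D+Q over young was 0.61 (-0.27 to 1.53), an interval too wide to tell a small difference from a large one. Free RNA in the droplets can give a UMI to a cell that does not make a transcript. Proximal tubule-like cells had 10.4 CPM of Upk1b, a urothelial gene, in the young library and 2.41 CPM in the D+Q library. Free urothelial RNA at that level would carry 0.496 and 0.194 CPM of Cdkn1a, against the 4.09 and 4.18 CPM measured. Proximal tubule transcripts were much more widespread outside their class. Slc34a1, a phosphate transporter gene of the proximal tubule, had 3520 CPM in young endothelial-like cells, against 5359 CPM in young proximal tubule-like cells, and was seen in 94.7% of the former and in 80.5% of young urothelium-like cells. Kap, another proximal tubule gene, was seen in 99.7% to 100% of proximal tubule-like, endothelial-like and urothelium-like cells in each library. Whether a single Cdkn1a UMI came from the cell or from free RNA of such a source was not tested.

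**Figure D3:**
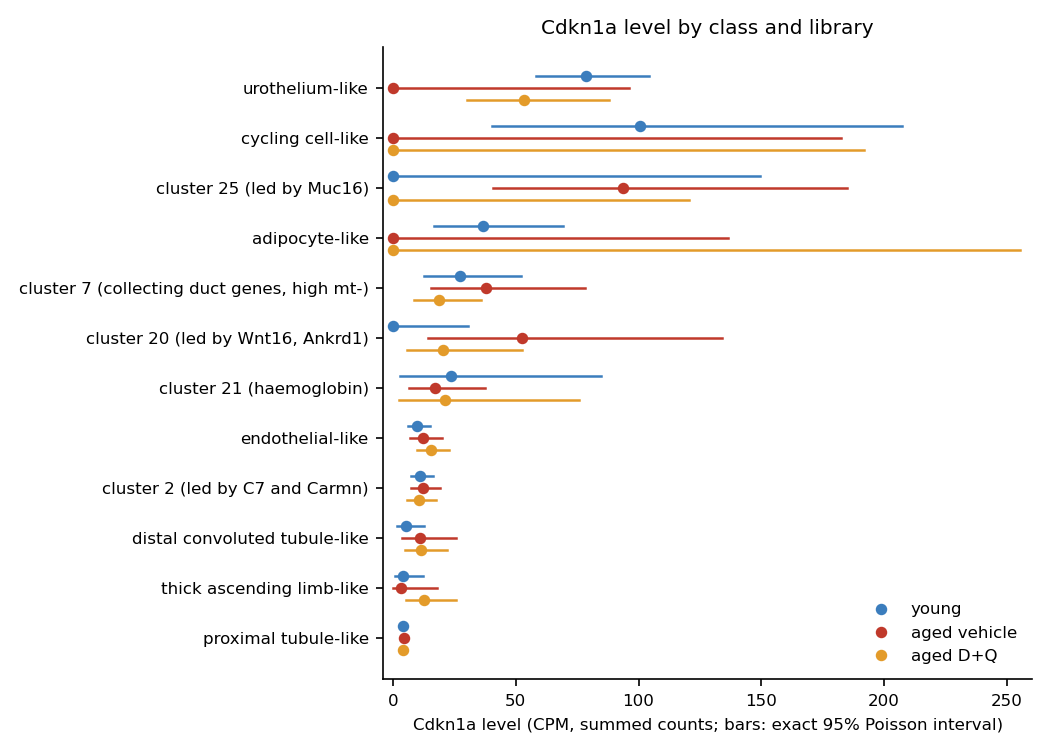
Cdkn1a level (x axis, CPM of summed counts) by class (y axis) in the young, vehicle and D+Q libraries, with exact 95% Poisson intervals. Urothelium-like cells stand at 78.7 CPM in young and 53.4 in D+Q, proximal tubule-like cells between 4.09 and 4.39 CPM in all 3 libraries, and points at 0 have wide intervals because few cells were captured.

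Against barcodes matched on depth alone, positive barcodes carried more counts of uroplakin, keratin and cell junction genes. A gene was measured when its counts in positives plus 1/10 of those in matched barcodes reached 20, which 11759 genes did. Of these, 32 were at least 2-fold higher in each of the 3 libraries (0.272% of genes measured) and 2 were at least 2-fold lower in each (0.017%). At 1.5-fold in each library, 189 were higher (1.61%) and 46 lower (0.391%). The uroplakin genes Upk3b and Upk1b, the envelope and junction genes Ppl and Dsg2, and the keratin gene Krt19 were among those higher. Krt19 had 378 CPM in positive and 49.9 CPM in matched barcodes of young, 13.7 and 3.30 CPM in vehicle, and 119 and 23.9 CPM in D+Q, a pooled log2 ratio of 2.76 (2.57 to 2.97). Upk1b had 537 and 53.1 CPM in young, 27.4 and 7.93 in vehicle, and 51.0 and 14.5 in D+Q, a log2 ratio of 3.12 (2.94 to 3.33). Both were higher in positives in every library, with the highest level in young. In vehicle 0 urothelium-like cells were positive. Cluster 25, led by Muc16, had its positives in vehicle alone and held 9 Upk1b and 4 Krt19 counts of positive barcodes.

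These genes sat in few cells. Of the counts of positive barcodes, the urothelium-like clusters and cluster 25 held 100% for Upk3b, 97.1% for Krt19 and Upk1b, 90.3% for Stk26, 86.7% for Col4a6, 82.5% for Ppl, 82.1% for Basp1 and 79.6% for Atp10b. They held 58.3% for the small heat shock gene Hspb1 and 56.1% for Hacd4, a fatty acid elongation gene. Sytl2, with a log2 ratio of 1.88 (1.58 to 2.20), had 34.4% there and 27 of its 125 counts in cluster 20, and Maged2, at 1.46 (0.76 to 2.23), had 22.7%. Without the urothelium-like cells and the clusters led by Muc16 and Top2a, a setting added after these values were seen, 1 gene was at least 2-fold higher and 1 at least 2-fold lower in each library, of 11079 measured. Genes lower in positives were few and low, such as Lrp1b, an endocytic receptor gene, with 19 counts in positives and a log2 ratio of -1.11 (-1.88 to -0.47).

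The class make-up was therefore matched too. Here 316 positives (121 young, 72 vehicle and 123 D+Q) were set against 5 barcodes each of the same library and class, and 40 positives without enough partners were left out, of which 32 were young urothelium-like cells, 5 young cycling cell-like cells and 3 vehicle cells of cluster 25. The 27 positives with a high doublet score were also left out. Of 11090 genes measured, 6 were at least 2-fold higher in each library (0.0541%) and 4 at least 2-fold lower in each (0.0361%). At 1.5-fold in each library, 43 genes were higher (0.388%) and 19 lower (0.171%). The median log2 ratio over all genes measured was 0.04.

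Gdf15 headed the genes higher in every library. It encodes a stress-induced cytokine and is a known p53 target. Positive barcodes had 12.2 CPM against 5.31 in young, 37.8 against 16.4 in vehicle and 36.6 against 12.1 in D+Q, from 6, 13 and 16 UMIs in positives. The pooled log2 ratio was 1.37 (0.76 to 2.02), and a Gdf15 UMI was seen in 8.86% of positive and 3.54% of matched barcodes. It was higher in the positives of all 3 libraries, on few counts in each.

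The other higher genes named by the rule rested on 22 to 48 counts in positives. Dscaml1, a cell adhesion gene, had a log2 ratio of 1.45 (0.69 to 2.29). Cklf, a chemokine-like gene, gave 1.10 (0.48 to 1.74), and Bmp1, which encodes a procollagen-processing protease, gave 1.19 (0.47 to 1.95). Xxylt1, Tprn, Pex26, Dpysl3, Ubqln4 and Golga2 lay between 0.82 and 1.22. Among those lower were Pde3a, a phosphodiesterase gene, at -0.89 (-1.26 to -0.54) and Grm7, a glutamate receptor gene, at -0.83 (-1.22 to -0.46). Nnat had 0 counts in positives and 141 in matched barcodes, at least 10.0-fold lower with a floor of 3 counts over the group. Of these 141, 104 were in young adipocyte-like cells and 83 in 1 barcode. When the share of barcodes with a UMI replaced summed counts, 2 genes were at least 2-fold higher in each library, and 0 of them were among the 6.

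The p53 target genes were mostly a little higher in positives at matched class. Of 37 listed genes 27 were measured, 3 were at least 1.5-fold higher with libraries pooled, 0 were lower, and 21 were above 0. Over all genes 4.49% were at least 1.5-fold higher and 2.21% lower on this pooled measure. How many of all genes lay above 0 was not counted. The list's median log2 ratio was 0.29, against 0.04 for all genes, with 0.14 in young, 0.25 in vehicle and 0.38 in D+Q. The 3 genes were Gdf15, Pmaip1 and Plk2. Positive barcodes carried a UMI of 4.81 of the listed genes on average against 4.07 in matched barcodes, with 4.52 against 4.17 in young, 5.65 against 4.74 in vehicle and 4.60 against 3.59 in D+Q.

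Plk2, a polo-like kinase gene, had a log2 ratio of 0.27 in young, 1.59 in vehicle and 1.49 in D+Q, and 1.18 pooled (0.65 to 1.73). Pmaip1, which encodes the pro-apoptotic protein NOXA, gave -0.01, 2.69 and 0.99, and 1.29 pooled (0.44 to 2.22). Both were lowest in young. Without the vehicle library Pmaip1 stood at 0.42, and without the young library at 2.10. The feedback regulator Mdm2 gave 0.22 (-0.08 to 0.50), Ccng1 0.27 (-0.05 to 0.58) and Bax 0.29 (-0.12 to 0.68). Trp53inp1, a p53-induced autophagy gene, gave 0.56 (0.21 to 0.90), and Polk, a translesion polymerase gene, gave 0.55 (0.20 to 0.89). Polk was the most even of these, at 0.49, 0.54 and 0.60 in the 3 libraries. Plk3, at -0.47 (-1.55 to 0.44), was the lowest.

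**Figure D4:**
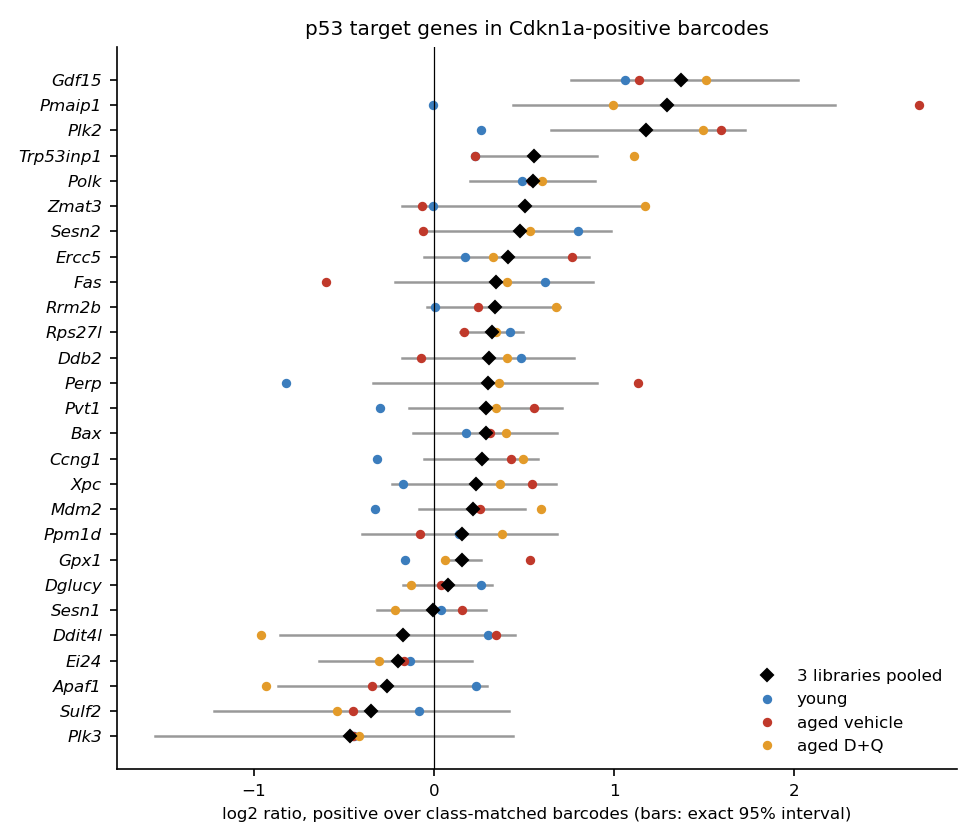
Log2 ratio (x axis) of Cdkn1a-positive over depth- and class-matched barcodes for the 27 measured p53 target genes (y axis), pooled (black diamonds, exact 95% intervals) and for each library (coloured circles). Gdf15 lies right of 0 in all 3 libraries, and Pmaip1 ranges from -0.01 in young to 2.69 in vehicle.

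The barcode with the most Cdkn1a UMIs carried much of the Pmaip1 signal. It was a proximal tubule-like cell of the vehicle library with 9 Cdkn1a UMIs among 4287 counts and a mt- share of 19.9%. It held 39 UMIs of 9 p53 target genes, of which 19 were of Gpx1. Among the others were 6 of Pmaip1, 3 of Plk2, 3 of Rps27l and 2 of Bbc3, which encodes the pro-apoptotic protein PUMA. Its p53 targets summed to 9097 CPM, against 1744 CPM in the 3840 cells of its class and library without a Cdkn1a UMI. Without Gpx1 the values were 4665 and 1191 CPM. The barcode lay in cluster 8, with a median mt- share of 38.7%, but was set against the whole class. Without that barcode the log2 ratio was 0.73 for Pmaip1, 1.08 for Plk2 and 1.39 for Gdf15, and the median of the list was 0.28. Of the 13 barcodes with 3 or more Cdkn1a UMIs, 11 had a p53 target level above that of their class in their library, and 12 did when Gpx1, the most abundant gene of the list, was left out. The margin was as small as 1156 against 1123 CPM, in a D+Q urothelium-like barcode. Neither depth nor mt- share was matched for these 13 barcodes. How many barcodes without a Cdkn1a UMI lay above their class level was not counted, so the 11 and 12 have no reference. Of these 13 barcodes 6 were urothelium-like and 3 proximal tubule-like.

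Other inhibitors of the cell cycle showed little. Of 18 genes for CDK inhibitors and arrest 11 were measured, 1 was at least 1.5-fold higher and 0 were lower, with a median of 0.14. The higher gene was Cdkn2c, which encodes p18, at 0.71 (-0.22 to 1.62). Over all genes 4.49% were at least 1.5-fold higher and 2.21% lower with libraries pooled, with a median of 0.04. Cdkn1b, the gene of p27, gave 0.19 (-0.36 to 0.71) and Trp53 -0.15 (-0.70 to 0.35). Cdkn2a, the gene of p16, had 0 counts in positives and 2 in matched barcodes, and Cdkn2b had 6 and 10, so neither could be compared. Lmnb1, the lamin gene often low in senescent cells, gave -0.30 (-1.39 to 0.62). In the cell cycle list 10 of 27 genes were measured, 1 was at least 1.5-fold higher and 2 lower, beside the same 4.49% and 2.21% of all genes. Of these 10 genes 8 were above 0, a share that was not counted for all genes. The list's median was 0.23, against 0.04 for all genes. Mcm6 was at 0.81 (0.10 to 1.51), Pcna at -0.84 (-1.82 to -0.03) and Cdk2 at -0.92 (-2.23 to 0.09).

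Of 46 genes for secreted senescence factors 24 were measured, 6 were at least 1.5-fold higher and 0 were lower, where 4.49% of all genes were higher and 2.21% lower. Their median was 0.10, against 0.04 for all genes. Few barcodes carried some of these. All 57 Timp1 counts of the positives were in 1 barcode, and Cxcl10, with 24 counts, was seen in 8 positives. Igfbp2 was higher in D+Q alone, at 1.52, against -0.49 in young and -0.93 in vehicle. Tgfb1 was at 0.97 (0.37 to 1.59) and Plaur, the urokinase receptor gene, at 0.84 (0.06 to 1.62), and both were above 0 in every library. Il6 had 0 counts in positives and 1 in matched barcodes, Il1a 0 and 3, and Ccl2 1 and 8.

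Immediate early genes, which respond within minutes to growth factors, stress or tissue handling, had a median of 0.45 at matched class with libraries pooled, and of 0.21 in young, 0.30 in vehicle and 0.33 in D+Q. Of 35 genes 22 were measured, 6 were at least 1.5-fold higher and 1, Egr1, was at least 1.5-fold lower, where 4.49% of all genes were higher and 2.21% lower. Zfp36, which encodes an mRNA decay factor, gave 0.79 (0.36 to 1.22), Klf2 0.76 (0.36 to 1.17) and Klf6 0.70 (0.25 to 1.15), and each was above 0 in all 3 libraries. Fos did not move in 1 direction, at 0.17 in young, 1.87 in vehicle and -2.03 in D+Q. Positive barcodes carried a UMI of 3.21 listed genes against 2.60 in matched barcodes, and were higher in each library. Cebpb, a stress-responsive transcription factor gene, gave 0.64 (0.32 to 0.97) and was even across libraries, at 0.54, 0.67 and 0.75.

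Antigen presentation genes were higher in fewer members when class was matched. With depth alone 9 of 11 MHC class I genes were at least 1.5-fold higher, with a median of 0.90, and 0 were lower, against 10.9% of all genes higher and 2.81% lower on that measure with libraries pooled. H2-K1 gave 1.06 and B2m 0.90. With class matched as well, 2 of 11 were higher, Psmb8 at 1.03 (0.30 to 1.78) and Nlrc5 at 0.70 (0.05 to 1.34), and the median was 0.36. With this matching 4.49% of all genes were at least 1.5-fold higher and 2.21% lower, which also holds for the next 2 lists. The interferon response list went from 12 to 3 of 17 measured genes and from a median of 0.79 to 0.34, with Isg15 at 1.21 (0.30 to 2.19) and Ifitm3 at 0.71 (0.41 to 1.01). Tubular injury and repair genes went from 17 of 28 to 1 of 27 and from 1.01 to 0.23, and the remaining gene, Krt18, was at -1.29 in young and 1.31 in D+Q. The 2 comparisons also differ in their positives, 383 and 316, and in the number of partners. In a setting added after these values were seen, the 316 positives were given 5 partners each on depth alone. Then 7 of 11 MHC class I genes were higher with a median of 0.77, 10 of 16 interferon response genes with a median of 0.80, and 12 of 27 injury genes with a median of 0.51, against 7.65% of all genes. For the 316 positives, the medians on depth alone and with class were 0.77 and 0.36 for MHC class I, 0.80 and 0.34 for interferon response and 0.51 and 0.23 for injury genes. For the 383 positives on depth alone they were 0.90, 0.79 and 1.01. What each change of setting contributed was not tested. H2-K1 and the haemoglobin genes below have near-identical copies that the counting could split, so their values are uncertain.

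**Figure D5:**
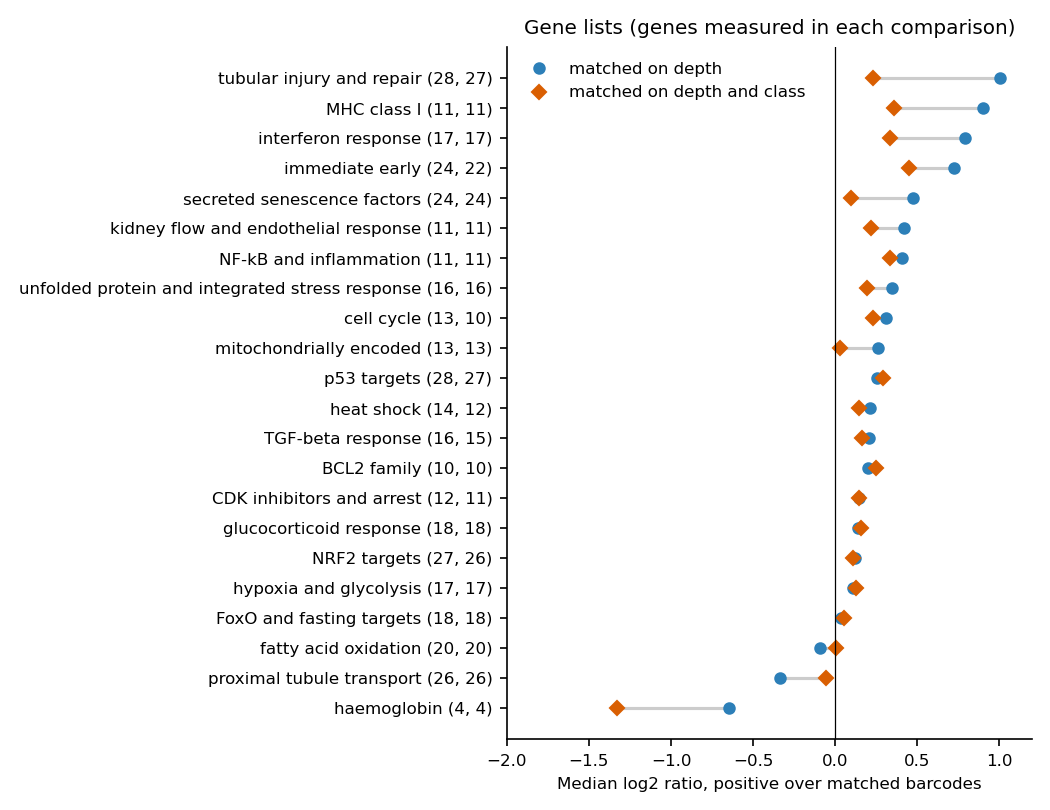
Median log2 ratio (x axis) of positive over matched barcodes for each gene list (y axis, with the genes measured under each matching), with barcodes matched on depth (blue circles) or on depth and class (orange diamonds). Injury genes lie at 1.01 and 0.23, MHC class I genes at 0.90 and 0.36 and p53 targets at 0.25 and 0.29. The positives number 383 under the first matching and 316 under the second.

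Markers of other cell types moved with these values at matched class. Summed fibroblast (stromal) markers were 390 CPM in positives and 262 in matched barcodes, with 6 of 8 higher, and this came from D+Q, at 623 against 203 CPM. Urothelium markers, 6 of 9 higher, were 287 against 208 CPM, again led by D+Q. Erythroid markers were lower, with 0 of 5 higher and 376 against 958 CPM, and the 4 haemoglobin genes had a median of -1.33, as low as -2.82 in D+Q. Neutrophil markers were near 0 in both, at 1.57 and 4.70 CPM. The part of these markers in the results was not tested.

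In proximal tubule-like cells alone, 117 positives were set against 1170 cells of the class. Of 5207 genes measured, 1 was at least 2-fold higher in each library (0.0192%) and 0 were at least 2-fold lower. It was Ttc1, at 1.55 (0.80 to 2.40). At 1.5-fold in each library 21 were higher (0.403%) and 18 lower (0.346%), among them Mgmt, a DNA repair gene, at 1.21 (0.46 to 2.00) and Bckdhb, a branched-chain amino acid enzyme gene, at -1.02 (-1.93 to -0.27). Of 14 p53 targets measured 13 were above 0 and 3 reached 1.5-fold, and their median was 0.38 against 0.03 for all genes. Over all genes 5.95% were at least 1.5-fold higher and 4.36% lower with libraries pooled, and the share above 0 was not counted. Trp53inp1 gave 1.29 (0.74 to 1.85), with 0.36, 1.44 and 1.75 in young, vehicle and D+Q. A Trp53inp1 UMI was in 23.1% of positive and 10.4% of matched cells. Ccng1 gave 0.71 (0.17 to 1.24), and Gdf15, below the count floor, had 12 counts in positives and 41 in matched cells, at 1.39. Transport genes of the proximal tubule had a median of 0.06.

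In endothelial-like cells, 52 positives were set against 520 cells. Of 4710 genes measured 1 was at least 2-fold higher in each library (0.0212%), Cdc42ep3, at 1.13 (0.35 to 1.94), which encodes an effector of the GTPase CDC42. At 1.5-fold in each library 37 were higher (0.786%) and 17 lower (0.361%). Gimap4, at 1.24 (0.40 to 2.11), and Anxa11, an annexin gene, at 1.26 (0.61 to 1.93), were among those higher. Other cell types' markers differed here too. Summed fibroblast (stromal) markers were 112 CPM in positives and 45.1 in matched cells (5 of 8 higher), and adipocyte markers 350 and 216 (1 of 7). Thick ascending limb markers were higher in D+Q positives, at 7034 and 4028 CPM. They were lower in young positives, at 3015 and 4151, and in vehicle positives, at 3651 and 4166. Neutrophil markers were at 0 in positives. Their part in these values was not tested. The p53 targets, 10 measured, had 1 at least 1.5-fold higher and 1 lower, Mdm2 at -0.59 (-1.47 to 0.15), and Trp53inp1 stood at -0.15 (-1.26 to 0.78). Over all genes 7.62% were at least 1.5-fold higher and 3.8% lower with libraries pooled. The difference of Trp53inp1 between the classes was not tested. H2-K1 gave 0.77 (0.52 to 1.02), with 0.69, 0.55 and 1.02 in the 3 libraries, and was in 80.8% of positive and 65.0% of matched cells.

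Differences between libraries were more frequent among positives than among their class-matched partners, which are 5 times as many cells. For vehicle over young, 302 of 7442 genes were at least 2-fold higher in positives (4.06%) and 280 lower (3.76%), against 80 (1.07%) and 56 (0.752%) in matched barcodes, with 41 and 39 called in both. For D+Q over vehicle, 301 of 7151 genes were higher (4.21%) and 378 lower (5.29%), against 75 (1.05%) and 59 (0.825%), with 52 and 14 in both. The 2 comparisons share the vehicle library. Fewer counts lie behind the positives, and the part of this in the numbers of genes was not tested.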

How the data were processed

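Three-prime single-cell RNA counts of 3 kidney libraries were used. As deposited by the authors, the values are raw, whole-number UMI counts for each gene in each barcode. How reads were aligned and barcodes selected is not stated in these sources, and the submitters' processing notes name 2 genome builds without roles, so no coordinates are given. Total counts were 24346733 (young), 13944270 (vehicle) and 21058975 (D+Q).

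Barcodes over 50% mt- counts were left out (385, 82 and 149). Scrublet's own threshold called 2, 0 and 1 doublets, under 0.5%, and was taken not to have worked, so barcodes above the score quantile of a rate of 0.8% per 1000 barcodes formed a group of their own (496, 244 and 464). The others were clustered without Cdkn1a on 2000 variable genes, 30 principal components, 15 neighbours and Leiden resolution 1, with no integration. A cluster was named from at least 3 markers with 10 counts and 0.25 of their highest cluster level, with no other class at 0.75 of its level, and stayed unnamed where its leading 10 genes went against the name, which was judged after the data were seen.

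Counts were summed over positive and matched barcodes, divided by totals without Cdkn1a, and compared as log2 ratios with a prior of 0.5 counts, with exact conditional binomial intervals. Shares have Clopper-Pearson and levels Poisson intervals. UMIs were read as molecules. A gene was measured from 20 counts and called when at least 2-fold in the same direction in each library. Named genes were ranked by the least of their 3 log2 ratios among those at least 2-fold (depth) or 1.5-fold (class) in each library, and list members by their pooled ratio. Other genes were named after their values were seen. The members and lists were chosen with earlier results of these data known. The steps were tested on simulated data. Matrices were handled with scipy 1.17.1, numpy 2.4.6 and pandas 2.3.3 in Python 3.11.15. Clustering used igraph 0.11.9 and scanpy 1.11.5, with scikit-learn 1.9.0 and anndata 0.12.19, and plots matplotlib 3.10.9.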

Additional observations from a re-analysis of the deposited data

Results flagged for a closer look

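Barcodes with over 50% mt- counts, which the comparisons leave out, also held Cdkn1a. Of 616 such barcodes 7 had a UMI (1.14%, 0.458 to 2.33), and the limit that a count of 0 would allow is 0.487%, which any count over 3 passes: 5 of 385 in young, 2 of 82 in vehicle and 0 of 149 in D+Q. Their median total was 1949 counts, and no comparison with depth-matched barcodes was made.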

How the results depend on the processing

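No paired analysis was possible because each group has 1 library and cells of 1 library are not pairs. Shares of barcodes with a Cdkn1a UMI, 0.644% in young, 0.656% in vehicle and 0.583% in D+Q at 1000 UMIs, followed the depth: 2.09%, 1.35% and 1.66% with no thinning, 0.255%, 0.370% and 0.355% at 500 UMIs, and 1.07% in young and 0.875% in D+Q at 1400 UMIs. The class make-up moved for endothelial-like cells at Leiden resolution 2 (log2 1.78, from 0.32) and for urothelium-like cells with 1 matched barcode per positive (5.32, from 3.00). Matched on depth, genes higher and lower in each library, 32 and 2, were 125 and 8 with 1 matched barcode, 19 and 0 at a count floor of 50, 61 and 123 with no count floor, 189 and 46 at 1.5-fold, 1 and 1 without urothelium-like cells and the clusters led by Muc16 and Top2a, and 6 and 2 for the positives of the class-matched comparison with 5 partners on depth alone. Those lower were 1 with another random order, with a 25% mt- limit and in CPM without mt- counts, 0 with depth bins, 12 at a count floor of 10 and 11 with at least 2 Cdkn1a UMIs. Leaving out 1 library gave 48 to 223 higher and 9 to 14 lower, the most higher without vehicle. Matched on depth and class, 6 and 4 became 25 and 7 with 1 matched barcode, 3 and 2 with a 25% mt- limit, and 2 and 0 by the share of barcodes with a UMI. Those higher were 2 in the same cluster at Leiden resolution 2 and 12 at a count floor of 10. Leaving out 1 library gave 16 to 22 higher and 6 to 12 lower. With 1 matched barcode, proximal tubule-like cells gave 6 and 10, endothelial-like cells 18 and 5, and vehicle against young 468 lower in positives. Proximal tubule-like cells gave 1 lower with a 25% mt- limit. Reversed were the TGF-beta response median matched on depth (0.21), which ran from -0.10 without D+Q to 0.50 without young, the kidney flow and endothelial response median with at least 2 Cdkn1a UMIs (-0.059, from 0.42), Upk3b without urothelium-like cells and those 2 clusters (-2.28, from 2.73), and Pmaip1 in endothelial-like cells with 1 matched barcode (-0.044, from 0.55). Levels of Cdkn1a kept within their spread in the settings run. The causes were not tested. Settings on class make-up and on those positives, share of barcodes, the average over draws and the barcode with 9 Cdkn1a UMIs were chosen after seeing the data, and the setting that keeps high doublet scores in the nearest class was not run. Few members, mostly with 1 UMI, limit every ratio.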
